A study of Mus musculus with 15 samples.

Results

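Prostaglandin and leukotriene synthesis was followed through 5 genes, Ptgs1, Ptgs2, Ptges, Alox5 and Alox5ap, by taking every probe whose platform gene symbol is one of those names. Of the 15978 probes and 10900 gene symbols listed, 4 probes and 3 of the 5 genes belonged to the set: Ptgs2 with 1 probe, Ptges with 2 and Alox5ap with 1. Ptgs1 and Alox5 were not analysed here. All 3 genes with a probe passed the filter for detection and were tested among 7669 genes. Ptgs2 and Ptges passed it only through groups that had received LPS, where they were brightest. Their adjusted p-values for LPS against no LPS therefore describe a selected difference and are no support of their own.

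Total RNA was measured on 15 Illumina bead arrays in macrophages grown from the bone marrow of specific pathogen-free C57Bl/6 mice. Cells were held for 18 h with IFNγ, with IFNβ or with neither interferon, and then received ultrapure E. coli lipopolysaccharide (LPS) for 6 h or no LPS. The groups were control (3 arrays), IFNγ (3), IFNβ (2), LPS alone (2), IFNγ then LPS (3) and IFNβ then LPS (2). The LPS dose is labelled 10 ng/µl. No interferon dose is given in the sources used here. All 7 arrays with LPS shared 1 number at the start of their array names and all 8 without it another. Each number was read here as 1 slide. The slide and the LPS treatment therefore cannot be told apart. Every comparison of an interferon with its own control lay within a slide. The labels do not tie the arrays of one group to different mice or dishes, so each p-value reflects array-to-array spread that could be purely technical.

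Median raw intensity per array was 143.4 to 240.9, and 9342 to 11047 probes were detected (detection p under 0.01). Arrays of a group correlated at 0.979 to 0.993. The first IFNγ array and the first IFNγ and LPS array correlated least with their groups. The IFNβ and LPS arrays correlated at 0.981 with each other, and of a pair neither can be said to stand apart. Member results were also computed without the first 2 of these arrays and the second IFNβ and LPS array, an alternative chosen after seeing the data. Of 9 macrophage marker symbols 6 were listed, and all but Itgam, detected on 14 arrays, were detected on all 15. The number of arrays limits the precision of each value.

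Prostaglandins and leukotrienes are signalling lipids made from arachidonic acid, which phospholipases release from membranes. The cyclooxygenases, encoded by Ptgs1 and Ptgs2, turn it into prostaglandin H2, and the Ptges product, microsomal prostaglandin E synthase-1, turns that into prostaglandin E2. On the other branch the lipoxygenase encoded by Alox5 works with the membrane protein FLAP, encoded by Alox5ap, to make leukotriene A4, the precursor of the chemoattractant leukotriene B4 and of the cysteinyl leukotrienes. Ptgs2 and Ptges are known as inducible genes of activated macrophages, whereas FLAP is an abundant resting component of myeloid cells.

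The promoters of the inducible pair are shown because both genes rose with LPS and then differed under IFNγ. Each run gives RefSeq's 250 bases before the transcript start and 30 after it (280 bases, GRCm38.p6), 5′ to 3′ on the gene's strand, with capitals at matches to the motifs searched.
Ptgs2, chr1:150099781-150100060, plus strand: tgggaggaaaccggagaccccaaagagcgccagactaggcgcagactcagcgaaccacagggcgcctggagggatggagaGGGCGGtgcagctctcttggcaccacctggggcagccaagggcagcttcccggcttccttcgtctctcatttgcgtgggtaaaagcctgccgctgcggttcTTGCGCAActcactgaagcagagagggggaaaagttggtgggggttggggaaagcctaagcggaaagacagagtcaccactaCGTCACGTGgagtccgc
Ptges, chr2:30903268-30903547, minus strand: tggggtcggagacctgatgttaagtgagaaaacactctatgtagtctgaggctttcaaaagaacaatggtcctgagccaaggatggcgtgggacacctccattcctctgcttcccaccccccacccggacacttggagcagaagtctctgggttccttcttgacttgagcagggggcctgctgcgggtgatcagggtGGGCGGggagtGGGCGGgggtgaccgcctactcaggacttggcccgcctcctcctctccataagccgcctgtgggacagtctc
The Ptgs2 window held the C/EBP palindrome TTGCGCAA at bases -69 to -62 from the start. That palindrome occurred in 0.18% of 32851 promoter windows of the same length, searched on both strands. It also held the GC box GGGCGG at -170 to -165 (34.7% of windows), and, after the start, the CRE half-site TGACG on the opposite strand at 14 to 18 (19.9%), which overlaps the E-box CACGTG at 17 to 22 (6.79%). The Ptges window held the GC box at 2 places, -53 to -48 and -42 to -37. Neither window held the letters of the ISRE core, a pair of GAAA repeats with any 2 bases between them (3.28% of windows), the GAS element TTCNNNGAA (7.83%), the TATA box TATAAA (13.1%) or the kappa B motif (7.94%). A match describes letters in this window and is not a binding site. A missing motif says nothing of the bases outside the window, and all positions are counted from RefSeq's start. The motifs were chosen with these sequences in view.

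Ptgs2 RNA was induced by LPS, and IFNγ before LPS raised it further, whereas IFNβ before LPS gave no change past the test. Values are normalized log2 intensities. On the control arrays Ptgs2 stood at 4.53, 5.07 and 4.66 and was detected on none. After IFNγ it stood at 5.75, 5.04 and 5.21 and was detected on the first of these, and after IFNβ at 4.87 and 4.57, undetected. All 8 arrays without LPS thus lay at or near background. LPS alone gave 7.78 and 7.75. IFNγ followed by LPS gave 9.08, 9.19 and 9.58, and IFNβ followed by LPS gave 7.69 and 8.48. Every IFNγ and LPS array was above every other array, and the IFNβ and LPS arrays lay on both sides of those with LPS alone.

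With LPS alone Ptgs2 was at least 4.72-fold above control (means 7.77 and 4.75, adjusted p = 2.9e-07), a bound set by the lowest signal detected on each control array. The fitted difference ranged from 1.37 without background correction to 3.39 with cyclic loess. Since whole cultures were measured, more expressing cells and more RNA per cell cannot be told apart. IFNγ before LPS raised Ptgs2 2.86-fold over LPS alone (log2 difference 1.52, SE 0.263, 95% CI 0.95 to 2.08, n = 3 and 2 arrays, limma adjusted p = 0.00227). The call held under each of the 29 alternatives run, with adjusted p from 7.15e-05 to 0.0239, and at 0.0235 when only the LPS slide was fitted. Without those 3 arrays the Ptgs2 difference was 1.62 (adjusted p = 0.000247). IFNβ before LPS gave a log2 difference of 0.32 from LPS alone (95% CI -0.30 to 0.94, adjusted p = 0.73), an interval that leaves room for a change in either direction.

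The interferons were also set against each other, with Ptgs2 2.3-fold higher after IFNγ and LPS than after IFNβ and LPS (log2 difference 1.20, SE 0.263, limma adjusted p = 0.00792). That difference rested on 1 array. Without the first IFNβ and LPS array, the lower of its pair, it was 0.81 (limma adjusted p = 0.0958), and with only these 2 groups in the fit the adjusted p was 0.0718. Without the 3 arrays named above, which include the other array of that pair, the Ptgs2 difference was 1.70 (limma adjusted p = 0.00114). Without LPS, IFNγ gave a Ptgs2 difference of 0.58 from control (SE 0.235, adjusted p = 0.0858) and IFNβ one of -0.03 (adjusted p = 0.998). Over their own interferon controls LPS raised Ptgs2 after IFNγ (adjusted p = 7.5e-09) and by at least 6.01-fold after IFNβ (adjusted p = 3.07e-07). The fitted Ptgs2 difference after IFNγ was 3.95, but 2.28 without background correction, and the gene was detected on only 1 of the 3 IFNγ arrays it was set against. Whether LPS and IFNγ together exceeded the sum of their separate log2 changes was tested as an interaction, which was 0.94 (SE 0.353, adjusted p = 0.0992) and did not pass. It passed at 0.0458 without the first IFNγ array, the only array without LPS on which Ptgs2 was detected, and at 0.0106 without the 3 arrays named above, with an interaction of 1.25. Since Ptgs2 was near background without LPS, its log2 changes there are compressed.

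**Figure D1:**
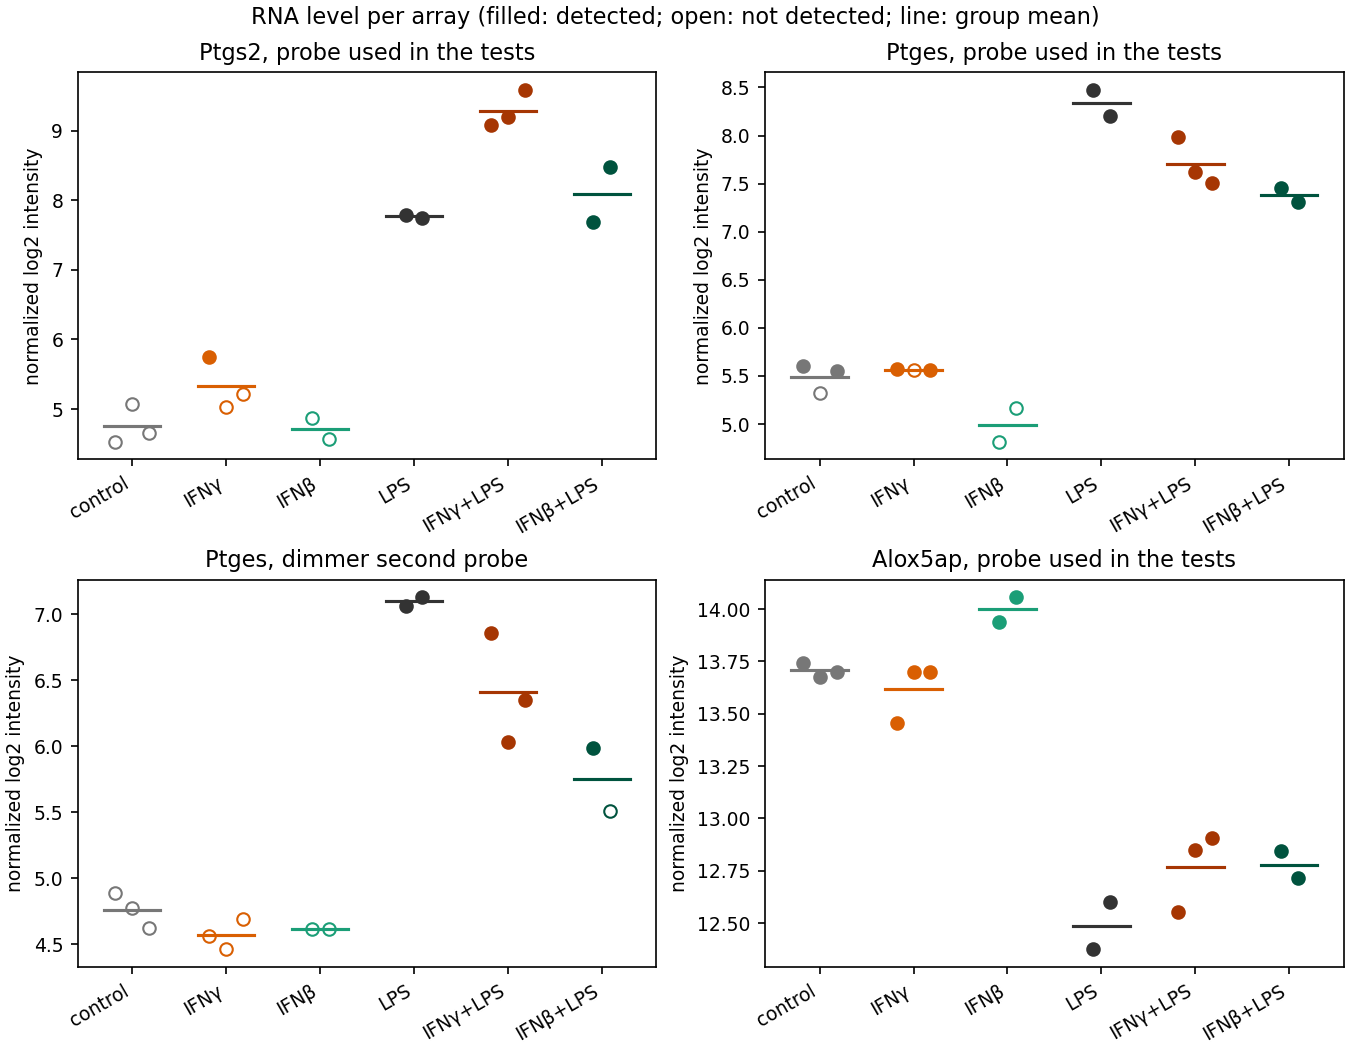
Normalized log2 intensity of each probe on each array (y axis) by group (x axis), with filled points detected, open points not detected and lines at group means. Ptgs2 is highest after IFNγ and LPS at 9.08 to 9.58, both Ptges probes are highest after LPS alone, and Alox5ap is lower on all 7 arrays with LPS than on the 8 without it.

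Ptges, which acts directly downstream of Ptgs2, was also induced by LPS, but under LPS its level was lower with either interferon than without. Its brighter probe, the one tested, stood at 5.61, 5.32 and 5.55 on control arrays and at 5.57, 5.57 and 5.56 after IFNγ, with 2 of 3 arrays detected in each group. After IFNβ it stood at 4.81 and 5.17 and was not detected. These levels were close to background. LPS alone gave 8.47 and 8.20. IFNγ followed by LPS gave 7.99, 7.62 and 7.51, and IFNβ followed by LPS gave 7.45 and 7.31. The arrays with LPS alone were above all 5 arrays that had an interferon as well.

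LPS alone raised Ptges (fitted log2 difference 2.85, SE 0.174, adjusted p = 6.21e-09), from a control level near background with 2 of 3 arrays detected. The Ptges difference was 1.48 without background correction, and the dimmer probe gave at least 2.97-fold. IFNγ before LPS left it 1.55-fold lower than LPS alone (log2 difference -0.63, SE 0.174, 95% CI -1.01 to -0.26, adjusted p = 0.0279), and IFNβ before LPS 1.94-fold lower (log2 difference -0.96, SE 0.19, 95% CI -1.37 to -0.55, adjusted p = 0.0373). Both differences share the same pair of LPS arrays. Neither call held throughout. With only the LPS slide fitted the adjusted p was 0.117 for IFNγ and 0.273 for IFNβ. The IFNγ call was lost without either LPS array (0.208 and 0.0574) and without the second or the third IFNγ and LPS array (0.0914 and 0.107). The IFNβ call was lost on leaving out any of 11 of the 15 arrays, among them both LPS arrays and both IFNβ and LPS arrays, with limma adjusted p from 0.0509 to 0.28. Without the 3 arrays named above the Ptges differences were -0.77 for IFNγ (adjusted p = 0.00613) and -0.89 for IFNβ (adjusted p = 0.063). In every one of these fits the difference stayed below 0.

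The dimmer Ptges probe, from the same gene, gave 7.07 and 7.13 with LPS alone. It gave 6.86, 6.03 and 6.35 after IFNγ and LPS, and 5.99 and 5.51 after IFNβ and LPS, the latter array undetected. Its LPS arrays again stood above all 5 with an interferon. Against LPS alone its difference was -0.69 for IFNγ (SE 0.214, adjusted p = 0.0498) and -1.35 for IFNβ (SE 0.235, adjusted p = 0.0177). Both probes read the same RNA samples and are not independent replicates. They disagreed without LPS, where IFNγ was above IFNβ by 0.58 on the brighter probe (at least 1.05-fold, adjusted p = 0.0299, lost in 10 of 29 alternatives, among them leaving out any IFNγ array or the first IFNβ array, at 0.0591 to 0.278) and the dimmer probe, undetected in both groups, gave -0.04 (adjusted p = 0.916). After LPS the brighter probe gave a difference of 0.33 between IFNγ and IFNβ that did not pass (95% CI -0.05 to 0.70, adjusted p = 0.239). Its difference from control did not pass for IFNβ alone (-0.50, adjusted p = 0.352) or for IFNγ alone (0.07, adjusted p = 0.77). LPS raised it over the matching interferon group after IFNγ (fitted log2 difference 2.14, and 1.02 without background correction, adjusted p = 5.59e-08) and by at least 3.69-fold after IFNβ (adjusted p = 1.42e-07). The interactions with LPS were -0.71 for IFNγ (SE 0.233, adjusted p = 0.0622) and -0.46 for IFNβ (adjusted p = 0.738).

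Alox5ap, the leukotriene-branch member, moved the other way: it was bright on every array and fell with LPS whatever the interferon. It stood at 13.74, 13.68 and 13.70 on control arrays, at 13.46, 13.70 and 13.70 after IFNγ and at 13.94 and 14.06 after IFNβ. LPS alone gave 12.38 and 12.60. IFNγ followed by LPS gave 12.55, 12.85 and 12.91, and IFNβ followed by LPS gave 12.84 and 12.72. The ranges with and without LPS did not overlap, while the groups that shared an LPS state lay close together.

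LPS alone lowered Alox5ap 2.33-fold (log2 difference -1.22, SE 0.15, adjusted p = 9.43e-06). It fell by 0.85 after IFNγ (SE 0.135, adjusted p = 0.000113) and by 1.22 after IFNβ (SE 0.165, adjusted p = 2.57e-05). The size depended on the scaling. With each array scaled to its median in place of quantile normalization, which moved the median LPS difference of all genes from -0.17 to -0.03, the Alox5ap differences were -0.65 for LPS alone (adjusted p = 0.00597) and -0.38 after IFNγ (adjusted p = 0.0533, no longer called). Under LPS both interferons gave small positive differences from LPS alone that did not pass, 0.28 for IFNγ (95% CI -0.04 to 0.61, adjusted p = 0.246, and 0.39, adjusted p = 0.0451, without the 3 arrays named above) and 0.29 for IFNβ (95% CI -0.06 to 0.65, adjusted p = 0.522). Without LPS the difference from control was -0.09 for IFNγ (adjusted p = 0.684) and 0.29 for IFNβ (adjusted p = 0.681).

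**Figure D2:**
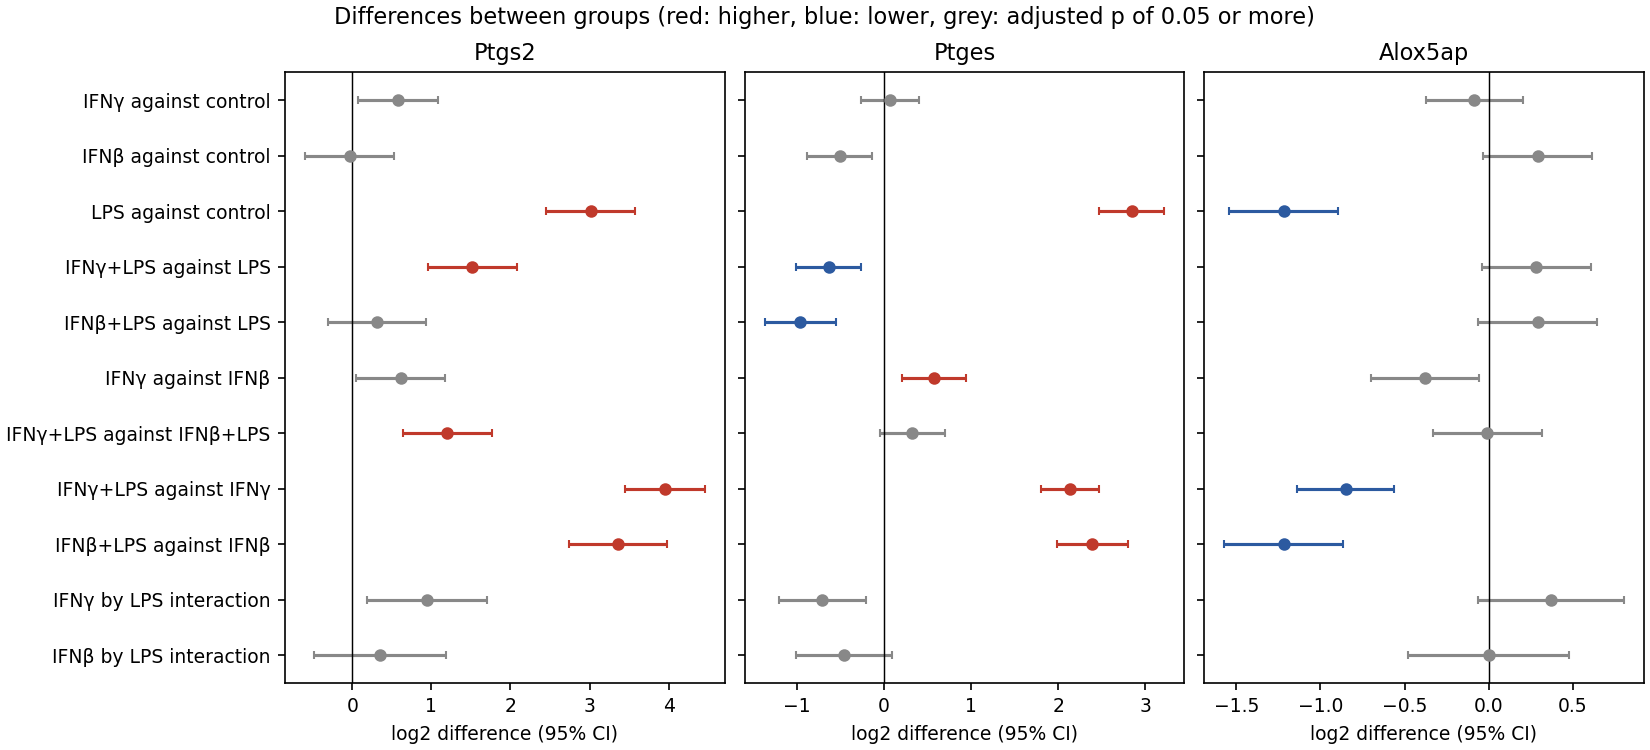
Log2 difference (x axis) of each gene in each of the 11 comparisons (y axis), with points at the estimate and bars at the 95% confidence interval, red for higher and blue for lower at an adjusted p under 0.05. IFNγ before LPS raised Ptgs2 by 1.52 while Ptges differed by -0.63.

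Set against all genes tested, the counts read as follows. LPS alone called 3 of the 3 tested genes, where 55.2% of all genes were called, LPS after IFNγ 3 of 3 (53.3%) and LPS after IFNβ 3 of 3 (55.1%). Because Ptgs2 and Ptges entered the test through their LPS level, those counts and the LPS p-values of these genes carry no weight of their own. IFNγ before LPS called 2 of 3 against LPS alone (12.8% of all genes) and IFNβ before LPS 1 of 3 (0.561%). IFNγ against IFNβ called 1 of 3 without LPS (20.6%) and 1 of 3 with it (13.4%). In the limma test none was called for IFNγ alone (26.1% of all genes, with 2839 genes at an unadjusted p under 0.05), for IFNβ alone (1.12%, 632 genes) or for the interactions of LPS with IFNγ (12.7%, 2086 genes) and IFNβ (0.156%, 629 genes). The genes past the unadjusted threshold included Ptgs2 for IFNγ alone, Ptges for IFNβ alone, and both Ptgs2 and Ptges for the IFNγ interaction.

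Ptgs2 and Ptges, which parted under IFNγ, were compared within each array by the Ptgs2 level minus the Ptges level. Different probes have no common scale, so the zero of this difference has no meaning and it is read between groups only. It was -0.69 and -0.45 with LPS alone, 1.09, 1.57 and 2.08 after IFNγ and LPS, and 0.24 and 1.17 after IFNβ and LPS. Every array with an interferon was above both arrays with LPS alone. The mean was 2.15 higher with IFNγ and 1.28 higher with IFNβ than with LPS alone. The pair was chosen because its genes had been seen to part on these arrays, so the values are a description with no test.

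**Figure D3:**
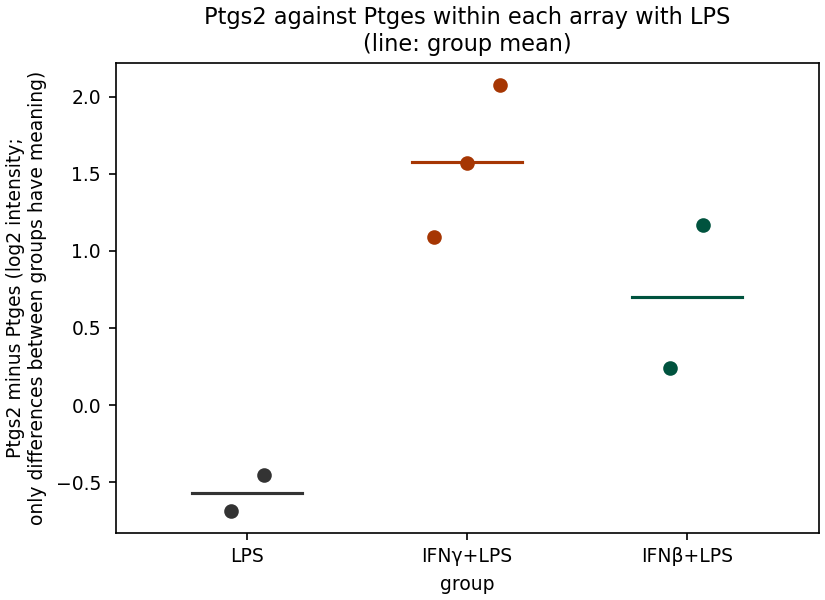
Ptgs2 minus Ptges log2 intensity (y axis) on each of the 7 arrays with LPS, by group (x axis), with lines at group means. The 3 IFNγ and LPS arrays lie at 1.09 to 2.08 and both arrays with LPS alone lie below every array with an interferon.

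Around these genes, 57 symbols of the wider eicosanoid pathway (older names included) were read in 7 lists by role, of which 29 had a probe and 21 were tested. LPS alone called 11 of 21, a share of 52.4% beside 55.2% of all genes, with 1 higher and 10 lower and a median log2 difference of -0.53 beside -0.17 for all genes. Of all genes 21.2% were higher and 34% lower with LPS alone, and the counts by list are to be read beside these shares. Scaled to array medians, 2 of the 21 were higher and 8 lower. Ptges3, a cochaperone also described as a cytosolic prostaglandin E synthase, rose by 0.86 (adjusted p = 0.00105). Among the other prostanoid synthases 4 of 6 fell, including Hpgds, the haematopoietic prostaglandin D synthase (-1.39, adjusted p = 1.77e-06), and Tbxas1, thromboxane A synthase (-1.24, adjusted p = 0.000321). Of 4 genes for inactivation and transport, the prostaglandin reductases Zadh2 (-1.47, adjusted p = 4.39e-06) and Ptgr2 (-1.02, adjusted p = 0.000374) fell. Of 2 phospholipase genes tested in the list for arachidonate release, Pla2g12a fell (-1.21, adjusted p = 0.000692), and arachidonate itself was not measured. Of the later leukotriene enzymes 2 of 5 were lower, Mgst3 (-0.75) and Dpep2 (-0.59), both lost under median scaling (adjusted p = 0.0894 and 0.218) and without the first LPS array (0.0675 and 0.0702). The prostaglandin E2 receptor gene Ptger2, at 6.11 to 6.49 on control arrays, was not detected on any array with LPS and was at least 1.53-fold lower with LPS alone (adjusted p = 1.9e-07). Ptger2 passed the filter only through groups without LPS, where it was brighter. That adjusted p and its place among the lower genes therefore describe a selected difference and are no support of their own.

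IFNγ alone called 10 of the same 21 genes, 47.6% beside 26.1% of all genes, with 5 higher and 5 lower and a median log2 difference of 0.12 beside -0.07. The synthases split. Tbxas1 stood at 11.29, 11.36 and 11.51 on control arrays and at 12.45, 12.43 and 12.53 after IFNγ, a rise of 1.08 (adjusted p = 0.00102). Hpgds fell by 0.52 (adjusted p = 0.00854), and Prxl2b, a prostaglandin F synthase, fell by 1.31 (adjusted p = 2.22e-05).

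In the leukotriene branch IFNγ lowered 3 of 5 later enzymes and raised none, where 14.6% of all genes were lower and 11.5% higher. Ltc4s, leukotriene C4 synthase, stood at 7.21, 7.55 and 7.42 on control arrays and at 6.10, 6.23 and 5.43 after IFNγ, the last undetected (log2 difference -1.47, adjusted p = 0.00472). The size of this difference depended on the processing, from -1.77 to -0.69 over 29 alternatives. Ltc4s was detected on 2 of 3 arrays in each group with IFNγ. It thus passed the filter only through groups without IFNγ, where it was brighter, which limits its adjusted p and its place in this count. Mgst3, a glutathione transferase, fell by 1.19 (adjusted p = 0.00043), and Dpep2, a dipeptidase of cysteinyl leukotriene metabolism, fell by 0.64 (adjusted p = 0.00818). Lta4h, which makes leukotriene B4, gave 0.33 and did not pass. Cyp4f18, which oxidises leukotriene B4 in the mouse, rose by 1.67 (adjusted p = 0.00108).

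Of the 4 receptor genes tested 3 rose with IFNγ, where 11.5% of all genes did: Ptger2 by 1.19 (adjusted p = 1.49e-05), the leukotriene B4 receptor Ltb4r1 (adjusted p = 0.00281) and the cysteinyl leukotriene receptor Cysltr1 by 0.60 (adjusted p = 0.0387, lost in 9 of 30 alternatives, among them leaving out any control array or the first or the third IFNγ array, at 0.0566 to 0.15). Ltb4r1 was detected on 1 of 3 control arrays, and its fitted difference was 0.85, or 0.30 without background correction. It passed the filter only through the interferon groups without LPS, where it was brightest. Its adjusted p and its place in this count therefore describe a selected difference and are no support of their own. For Ptger2 the difference ranged from 0.61 to 1.28 over 29 alternatives. The prostacyclin receptor Ptgir gave -0.01 and did not pass. IFNβ alone called none of the 21 genes (1.12% of all genes), with a median of 0.07 beside 0.00 over all genes.

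**Figure D4:**
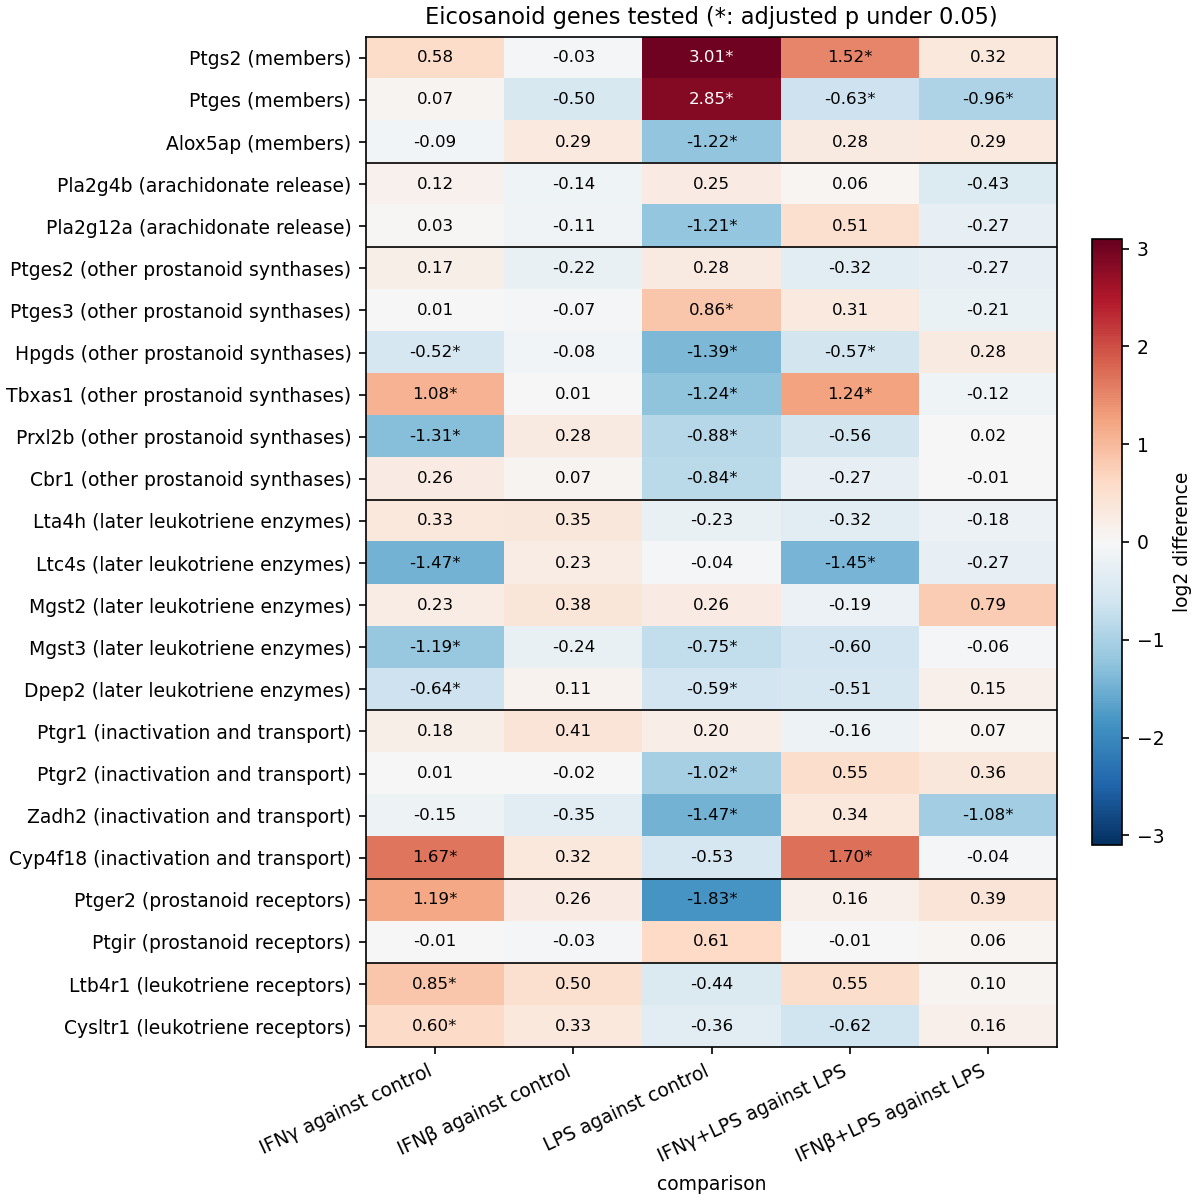
Log2 difference (colour and printed value) of each tested eicosanoid gene (rows, with its list in brackets) in 5 comparisons (columns), with a star at an adjusted p under 0.05. Ltc4s was lower with IFNγ in both LPS states, at -1.47 and -1.45, and Cyp4f18 was higher at 1.67 and 1.70.

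Under LPS, IFNγ called 4 of the 21 genes against LPS alone (19% beside 12.8% of all genes), each in its direction without LPS. Tbxas1 was higher by 1.24 (adjusted p = 0.00281) and Cyp4f18 by 1.70 (adjusted p = 0.00582). Ltc4s was lower by 1.45 (adjusted p = 0.022) and Hpgds by 0.57 (adjusted p = 0.0196). The Ltc4s difference ranged from -1.82 to -0.66 over 29 alternatives, and its entry into the test only through groups without IFNγ limits it here too. With only the LPS slide fitted, 0 of the 21 were called, with adjusted p for these 4 from 0.0504 to 0.109. Single arrays also decided calls: Cyp4f18 was lost without the second LPS array (0.0808), Ltc4s without either LPS array or the third IFNγ and LPS array (0.0651 to 0.13), and Hpgds without either LPS array or the second or the third IFNγ and LPS array (0.0555 to 0.104). IFNβ before LPS called 1 of 21 (4.76% beside 0.561%), the reductase gene Zadh2, undetected there and at least 1.74-fold lower (adjusted p = 0.0196, lost in 10 of 29 alternatives, at 0.0851 to 0.147 without either LPS array or the second IFNβ and LPS array).

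Markers of other cell types were read beside these results, whether or not they moved with LPS or an interferon. In the mast cell and basophil list, with 3 of 9 genes listed, the summed linear level rose from 75.0 to 108.1 on control arrays to 2969 to 3033 with LPS alone. That sum was carried by the histidine decarboxylase gene Hdc, while Cpa3 was detected on 0 arrays and Fcer1a on 1. In the T and NK cell list, with 2 of 6 listed, the sum fell from 2752 to 3023 on control arrays to 753.7 to 863.8 with IFNγ and 259.0 to 287.3 with LPS, through Cd28, while Cd3e was detected on 1 array. The neutrophil list, with 6 of 10 listed, summed to 2110 to 2594 in control and 2843 to 2850 with LPS, and the B cell list, with 2 of 5 listed, to 119.5 to 128.8 and 103.0 to 131.2. The dendritic cell list, with 3 of 6 listed, summed to 161.2 to 207.6 in control and 431.5 to 449.1 with IFNγ. Under LPS the dendritic cell sum was 193.9 to 210.9 with LPS alone, 336.2 to 523.2 after IFNγ and LPS and 165.8 to 236.8 after IFNβ and LPS. Of its 3 listed genes, Clec9a was detected on all 6 arrays with IFNγ and on none of the others. Batf3 was detected on all 15 arrays, at 6.69 to 7.19 in control and 8.33 to 8.46 with IFNγ. Siglech went the other way, detected on 2 arrays with LPS alone, on 1 with IFNβ and LPS and on none with IFNγ. The platelet list, with 3 of 6 listed, summed to 4761 to 7946 in control and 4787 to 6646 with LPS, through Pf4. None of 6 fibroblast markers was listed. Their part in the results was not tested.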

How the data were processed

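Biotin-labelled total RNA of 15 samples was read on Illumina arrays, per the labels. The deposited table holds mean bead intensity per probe before normalization and a detection p-value, per the file headers. The authors' deposited series values, on a log2 scale, served as an alternative (lowest correlation with the values computed here 0.9998). The sources used here name neither the scanner software nor the normalization the authors applied. For every listed probe the lowest detection p over the 15 arrays is under 0.05.

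Intensities were background-corrected with limma 3.58.1 (R 4.3.3) from the detection p-values, given an offset of 16, quantile-normalized and log2-transformed. A probe was kept (11117 were) when all arrays of some group gave a detection p under 0.01, and the brightest probe stood for each gene symbol of the platform annotation. Of all probes 14994 carried 1 symbol and 984 none, which were left out. Limma fitted 6 group means to all 15 arrays with empirical Bayes, in 11 two-sided comparisons adjusted by Benjamini-Hochberg over 7669 genes and called at an adjusted p under 0.05. Where a whole group fell short of detection, the fold is a bound: the dim side was set, per array, to its lowest detected signal unless the probe itself was brighter.

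Alternatives changed the background, scaling, filter, model and arrays used. Members, gene lists, motifs and tests were chosen with earlier results of these data known. Named genes were all members, up to 4 called and 2 uncalled genes per list and comparison, and the 3 genes most correlated with each member. That last choice passed over the other members, symbols that only number a transcript or locus, and symbols starting with Rps. Promoters are RefSeq's (GRCm38.p6), matched by symbol.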

Additional observations from a re-analysis of the deposited data

Results flagged for a closer look

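Limma's interaction of IFNγ with LPS was called for 2 of the 21 eicosanoid genes tested, or 9.52% beside 12.7% of all genes, so the count is not above the background. For the prostaglandin E2 receptor gene Ptger2 the interaction was -1.03 log2 units (SE 0.206, 95% CI -1.47 to -0.59, adjusted p = 0.00413), and it passed in all 28 alternatives that gave a value. Ptger2 stood at 6.11 to 6.49 in control and 7.43 to 7.65 after IFNγ, and at 4.41 to 4.72 and undetected on the 5 arrays of LPS alone and of IFNγ and LPS, so no IFNγ effect could be measured under LPS and the interaction carries the rise seen without LPS (1.19) set against levels below detection.

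For the cysteinyl leukotriene receptor gene Cysltr1 the interaction was -1.22 log2 units (SE 0.299, 95% CI -1.86 to -0.58, adjusted p = 0.0149). Cysltr1 stood at 8.78 to 8.97 in control and 9.28 to 9.73 after IFNγ, and at 8.39 and 8.59 with LPS alone against 8.39, 7.60 and 7.61 after IFNγ and LPS. The call was lost without the second LPS array (adjusted p = 0.0731).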

How the results depend on the processing

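Of 953 values of the tested members under alternatives, 896 kept their direction and side of the threshold, 39 fell below it, 18 passed it and 0 reversed. For the other eicosanoid genes these counts were 6473, 172, 81 and 0 of 6726. The cause of each change was not tested, except that with probes detected on all 15 arrays only Alox5ap was left to test. Members called (main count 0 for IFNγ alone, 3 for each LPS comparison, 2 for IFNγ and 1 for IFNβ against LPS alone, 1 for IFNγ against IFNβ in either state, 0 for the IFNγ interaction) changed as follows. Without background correction 2 were called for the IFNγ interaction, and with an offset of 50 the interaction called 2 and IFNγ against IFNβ 0. Median scaling called 1 for IFNγ alone and 2 for LPS after IFNγ, and cyclic loess 1 for IFNγ alone and 1 for its interaction. The authors' values called 0 for IFNγ against IFNβ. Without a detection filter IFNβ before LPS and IFNγ against IFNβ called 0 each. Detection on all 15 arrays left 1 for each LPS comparison and 0 for the interferons under LPS and for IFNγ against IFNβ in either state. Trend and robust variance gave 1 for IFNγ and 0 for IFNβ before LPS, as did fitting the slide alone. Array weights gave 1 for IFNγ alone, 0 for IFNβ before LPS, 2 for IFNγ against IFNβ and 2 for the IFNγ interaction. With only the groups compared, IFNγ before LPS called 1, IFNβ before LPS 0, and IFNγ against IFNβ 0 in either state. Leaving out together the first IFNγ, the first IFNγ and LPS and the second IFNβ and LPS array, chosen after seeing the data, gave 3 for IFNγ before LPS, 0 for IFNβ before LPS and 2 for the IFNγ interaction.

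Leaving out each array in turn gave 1 to 2 members for IFNγ and 0 to 1 for IFNβ before LPS, 0 to 1 for IFNγ against IFNβ in either state and 0 to 1 for the IFNγ interaction. The Ptges interaction with IFNγ passed at 0.0175 without the first IFNγ and LPS array. With replicate number as a block, IFNγ before LPS called 1 member and IFNβ before LPS 0, because the Ptges adjusted p became 0.064 and 0.0714. Deviations from the group mean correlated at -0.435 to 0.215 (median -0.0209) between same-numbered arrays of different groups. Between other-numbered arrays they correlated at -0.256 to 0.435 (median 0.00923). In a group of 2 arrays the deviations mirror each other, so these values cannot settle whether the numbers pair the arrays.

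Over all genes, IFNγ before LPS called 980 genes against LPS alone, but 305 on the slide alone, 203 with only those groups, 404 to 1500 leaving out arrays in turn and 1982 without the 3 arrays. IFNβ before LPS called 43, but 0 on the slide alone and with only those groups, and elsewhere 1 to 114. IFNγ against IFNβ under LPS called 1029, but 403 on the slide alone, 187 with only those groups and as few as 520 without 1 array. Array weights gave 3072 for 2001 for IFNγ, 195 for 86 for IFNβ, 2610 for 1582 for IFNγ against IFNβ and 1464 for 974 for the IFNγ interaction. Leaving out 1 array gave as few as 31 for IFNβ, 862 for IFNγ against IFNβ and 640 for the IFNγ interaction, and leaving out the 3 arrays gave 153 for IFNβ. The IFNβ interaction called 12, and 1 to 27 elsewhere.

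Ptgs2 and Ptges without LPS, Ltb4r1 in control and with LPS, and Ptger2 with LPS lay near or below detection, which limits their differences.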

Other observations

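In a search for genes like each member, the other members, symbols that only number a transcript or locus, and symbols starting with Rps were passed over. Among the rest, the genes whose log2 levels followed each member most closely over the 15 arrays were read as a description, since all arrays share the LPS and slide split. For Ptgs2 they were Birc3, an inhibitor of apoptosis (r = 0.989), Tank, an adaptor of TRAF signalling (r = 0.986), and Nos2, the inducible nitric oxide synthase (r = 0.984). Nos2 averaged 9.47 ± 0.0226 (SD, n = 2) with LPS alone, 11.06 ± 0.245 (n = 3) after IFNγ and LPS and 10.21 ± 0.732 (n = 2) after IFNβ and LPS. Within the 7 arrays with LPS its r with Ptgs2 was 0.962, and within the 8 without LPS, where both averaged near background, 0.368. For Ptges the closest were Zfp263 (r = 0.979), Fnbp1l (0.978) and Mtdh (0.978), and for Alox5ap they were Tctn3 (0.981), Mrps33 (0.977) and Tmem223 (0.975).

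Between the members themselves, r over 15 arrays was 0.898 for Ptgs2 with Ptges and -0.401 within the 7 arrays with LPS. For Ptges with Alox5ap it was -0.981 and -0.86, and for Ptgs2 with Alox5ap -0.9 and 0.48.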
